A study of Saccharomyces cerevisiae with 10 samples.

Results

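The transcriptome of an npl6Δ strain of budding yeast (Saccharomyces cerevisiae) was compared with that of wild type (WT) of the same mating type over the genes measured in both libraries. NPL6, also called RSC7, encodes a subunit of RSC. RSC is an abundant, essential chromatin remodeller that slides and evicts nucleosomes and keeps the promoters of many yeast genes open. Npl6 binds Htl1, and both belong with Ldb7 and the zinc-cluster proteins Rsc3 and Rsc30 to an accessory module of RSC, while Rsc1 and Rsc2 are alternative paralogs and Rtt102 is a small subunit shared with SWI/SNF. Genes were taken from the authors' deposited table of this pair if their row named 1 gene, had the authors' status OK and reached 5 FPKM, a level scaled to locus length and library size, in at least 1 of the 2 libraries. Of 6816 rows that name 1 gene, 6051 met this rule. YBR284W, at 5.03 FPKM in npl6Δ, against 4.89 FPKM in WT, and MSH4, at 5.08 and 3.58 FPKM, lay just inside the limit, while FEX1, at 2.98 FPKM in npl6Δ, against 5.0 FPKM in WT, and YGR069W, at 5.0 and 1.58 FPKM, lay just under it before rounding.

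The npl6Δ and WT strains have an S288C background and are segregants of a diploid heterozygous for an rsc mutation, and both grew in log phase in YPD, rich medium with glucose, with 10 generations given in the titles. The htl1Δ, rsc1Δ, rsc2Δ and rtt102Δ deletions were grown and sequenced in the same experiment and, through the shared WT library, could be put on the same scale. A further library, of a WT strain carrying GALpr-HTL1 (HTL1 under a galactose promoter) grown to saturation in YPGR and then for 10 generations in YPD, belongs to another experiment and is given here as a second control, called WT GALpr-HTL1. Each strain had 1 library of polyadenylated RNA, and the differences below are without a replicate check. Ratios are log2((npl6Δ + 1)/(WT + 1)) in FPKM, and the limit for calling a gene higher or lower was a ratio of 1 or -1, a rule of size with no test behind it. Depth was estimated from the steps of low values at 12300000 fragments in npl6Δ and 12000000 in WT, and between 11100000 and 14800000 over the 7 libraries. A locus of 1000 bp at 5 FPKM then stands for 38.0 to 46.7 fragments.

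The npl6Δ library lacked the transcript of the deleted gene, and both libraries had the marker pattern of alpha cells; the labels give no mating type. NPL6 (YMR091C, chrXIII:450058-451365, sacCer3) was at 0.344 FPKM in npl6Δ, between 82.4 and 96.8 FPKM in the other 4 deletions, at 99.8 FPKM in WT and at 99.3 FPKM in WT GALpr-HTL1. The 4 alpha-cell markers MF(ALPHA)1, MF(ALPHA)2, STE3 and SAG1 summed to 11263 FPKM in npl6Δ, against 10885 FPKM in WT, and to between 58.4 and 122 FPKM in the other deletions, which have the marker pattern of a cells and are called a-type here. The 6 a-cell markers STE2, MFA1, MFA2, STE6, BAR1 and AGA2 summed to 232 FPKM in npl6Δ, against 118 FPKM in WT, and to between 27807 and 72160 FPKM in the other deletions. None of these markers was listed at 0 in npl6Δ or WT. The pair was not matched for strain markers: MET17, which encodes homocysteine synthase, was listed at 0 in npl6Δ, htl1Δ, rtt102Δ and WT GALpr-HTL1, and was at 54.3 FPKM in rsc1Δ, at 145 FPKM in rsc2Δ and at 153 FPKM in WT, in a row that overlaps another. URA3 and LEU2 were listed at 0 in both npl6Δ and WT, and URA3 was at 190 FPKM in WT GALpr-HTL1, where LYS2 was listed at 0. Within the pair of npl6Δ and WT, genotype at NPL6 and at MET17 cannot be told apart as a source of any difference. WT GALpr-HTL1 has NPL6 transcript and, like npl6Δ, MET17 listed at 0. It differs from npl6Δ in URA3 and LYS2 levels, the GALpr-HTL1 construct and history of growth, so it does not isolate NPL6 either.

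Of the 6051 genes, 280 (4.63%) were at least 2-fold higher in npl6Δ than in WT and 195 (3.22%) at least 2-fold lower. The median log2 ratio over all genes was 0.005, with quartiles at -0.29 and 0.29, and 50.5% of genes lay above 0. At 4-fold or more, 53 genes were higher and 41 lower. Against both WT libraries, 131 genes (2.16%) were at least 2-fold higher in npl6Δ and 88 (1.45%) at least 2-fold lower. The genes higher than WT had a median log2 ratio of 1.36 over WT and 0.92 over WT GALpr-HTL1, and the lower genes -1.33 over WT and -0.90 over WT GALpr-HTL1. Since the genes were picked on the ratio to WT, values nearer 0 against the second control are partly set by that choice. Of the higher genes 16, and of the lower genes 26, had a ratio of opposite sign over WT GALpr-HTL1. The 2 WT libraries themselves differed 2-fold at 198 genes, with 77 higher and 121 lower in WT GALpr-HTL1 than in WT.

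**Figure D1:**
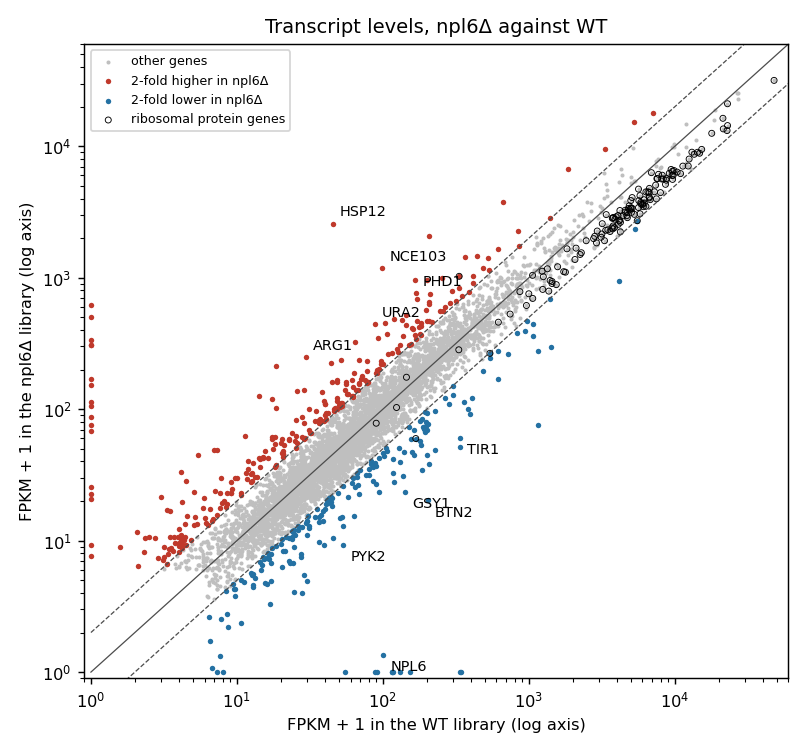
FPKM + 1 of 6051 genes in the npl6Δ library (vertical log axis) against the WT library (horizontal log axis); the solid line marks equal levels and the dashed lines 2-fold, red points are the 280 higher genes, blue points the 195 lower ones and open circles ribosomal protein genes. HSP12 stands highest above the line among the labelled genes, and the ribosomal protein circles lie along the lower side of the equal line at the top right. Points on an axis are loci listed at 0 in that library.

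**Figure D2:**
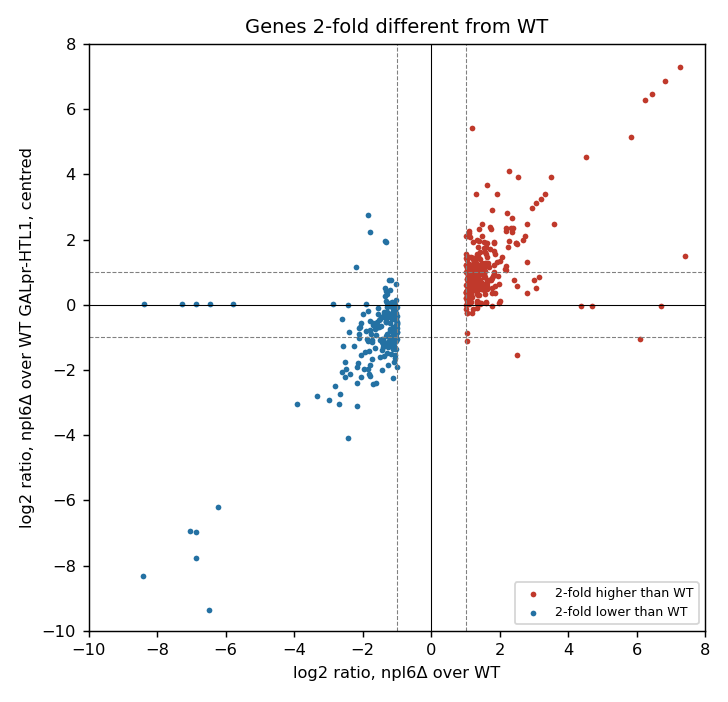
Log2 ratio of npl6Δ over WT GALpr-HTL1 (vertical, centred on the median of all genes) against log2 ratio of npl6Δ over WT (horizontal) for the 475 genes at least 2-fold different from WT; both axes share the npl6Δ library. Of the 280 red points 131 lie above the upper dashed line, and of the 195 blue points 88 lie below the lower one.

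Arginine synthesis was the gene group with the highest median in npl6Δ. All 10 measured genes of the pathway were higher than in WT, 7 of them at least 2-fold and none lower, with a median log2 ratio of 2.08, where 4.63% of all genes were 2-fold higher. Over WT GALpr-HTL1 the median was 1.74 and 6 genes were at least 2-fold higher. The pathway makes arginine from glutamate through ornithine and citrulline and its genes are textbook targets of Gcn4, the activator of amino acid synthesis genes, and of the ArgR-Mcm1 repressor. YPD supplies amino acids.

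The sequences upstream of ARG1 and ARG4, which had some of the highest ratios of the pathway, are shown with the Gcn4 core string TGACTC, on either strand, in capitals. They are the 250 bases from 400 to 151 before the start codon, read 5′ to 3′ on the gene's strand from the RefSeq R64 assembly: ARG1 (chrXV:218811-219060, plus strand) and ARG4 (chrVIII:141553-141802, minus strand).
ARG1: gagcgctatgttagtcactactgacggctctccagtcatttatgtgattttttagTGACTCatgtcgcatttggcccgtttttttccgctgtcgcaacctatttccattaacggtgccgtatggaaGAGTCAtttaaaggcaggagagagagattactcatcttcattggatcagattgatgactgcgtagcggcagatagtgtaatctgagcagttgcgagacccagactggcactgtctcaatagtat
ARG4: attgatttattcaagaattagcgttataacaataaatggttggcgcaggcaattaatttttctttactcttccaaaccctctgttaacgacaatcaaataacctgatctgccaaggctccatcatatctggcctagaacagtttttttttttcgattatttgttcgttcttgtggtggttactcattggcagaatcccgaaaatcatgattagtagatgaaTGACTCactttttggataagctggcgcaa

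ARG1 held 2 copies of the string within 500 bases of the start codon and ARG4 held 1. Of the 10 arginine genes, all had at least 1 copy in that window, against 720 of 5502 upstream windows (13.1%) over all protein-coding genes measured. A match is a description of letters and not a binding site.

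ARG4, argininosuccinate lyase, was at 325 FPKM in npl6Δ and 279 in htl1Δ, between 54.8 and 87.0 FPKM in the other 3 deletions, and at 63.0 FPKM in WT and 70.3 FPKM in WT GALpr-HTL1. ARG7, the mitochondrial ornithine acetyltransferase, was at 222 FPKM in npl6Δ, 134 in htl1Δ, 55.7 to 93.0 FPKM in the other 3 deletions, 42.8 FPKM in WT and 35.2 FPKM in WT GALpr-HTL1. Both genes were highest in npl6Δ, followed by htl1Δ.

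ARG1, argininosuccinate synthase, followed another order: it was at 247 FPKM in npl6Δ, 311 in htl1Δ and 250 in rtt102Δ, at 89.8 in rsc1Δ and 56.5 in rsc2Δ, and at 28.8 FPKM in WT and 28.5 FPKM in WT GALpr-HTL1. ARG3, ornithine carbamoyltransferase, was at 27.5 FPKM in npl6Δ and 34.4 in htl1Δ but at 151 in rtt102Δ, where WT had 3.48 FPKM. The CPA1 gene, whose mRNA carries an arginine-sensing leader peptide, was at 476 FPKM in npl6Δ, 472 in htl1Δ, 135 FPKM in WT and 263 FPKM in WT GALpr-HTL1, so its log2 ratio of 1.81 over WT was 0.89 over the second control. ARG8, ARG2 and ORT1, the mitochondrial ornithine exporter gene, had ratios of 0.66, 0.70 and 0.68 and stayed under 2-fold. The medians of the list over the same WT library were 1.72 in htl1Δ, 0.83 in rsc1Δ, 0.31 in rsc2Δ and 1.10 in rtt102Δ. These comparisons share the WT library. For the rtt102Δ values, deletion of RTT102, the near absence of CAN1 and LYP1 transcripts and the absence of MET17 transcript cannot be told apart as sources.

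The 5 arginine and proline breakdown genes were mixed. CAR2, ornithine transaminase, whose row overlaps another, was at 61.7 FPKM in npl6Δ, against 24.5 FPKM in WT (1.30), and CAR1, arginase, at 114 and 65.2 FPKM (0.80), while the proline oxidase gene PUT1 was at 8.06 and 17.0 FPKM (-0.99) and PUT2 and PRO3 were both at -0.09. The mRNA of GCN4 itself, whose control is mainly translational, was at 2393 FPKM in npl6Δ, against 1481 FPKM in WT (0.69), with the other deletions between 1591 and 1922 FPKM. The arginine regulator genes ARG80, ARG81, ARG82 and MCM1 had ratios between -0.04 and 0.24.

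The other amino acid pathways were shifted in the same direction by smaller amounts. All 15 aromatic synthesis genes lay above 0 (median 0.64, 3 at least 2-fold higher), as did all 5 histidine genes (0.64, 1), all 9 lysine genes (0.52, 1) and 10 of 11 branched-chain genes (0.40, 1). None of the genes in these 4 lists was 2-fold lower, and over all genes 4.63% were 2-fold higher and 3.22% lower. Over WT GALpr-HTL1 the medians were 0.73, 0.67, 0.82 and 0.43, and the lysine value there includes LYS2, listed at 0 in that control. HIS4, a multifunctional histidine enzyme gene, was at 236 FPKM in npl6Δ, 181 in htl1Δ, 52.0 to 101 FPKM in the other deletions, 68.0 FPKM in WT and 31.1 FPKM in WT GALpr-HTL1. LEU4, an isopropylmalate synthase gene, was at 425 FPKM in npl6Δ, at 197 to 209 FPKM in the 4 other deletions, and at 180 FPKM in WT and 165 FPKM in WT GALpr-HTL1, so npl6Δ stood apart from 6 libraries that lay close together; the LEU4 row overlaps another. TRP4, whose row overlaps another, was at 140 FPKM in npl6Δ, against 66.6 FPKM in WT (1.06), ARO3 at 560 and 247 FPKM (1.17), and LYS1 at 80.8 and 38.4 FPKM (1.05). In npl6Δ 10 of the 15 aromatic genes and 8 of the 11 branched-chain genes were above all 5 other libraries of the experiment, where 1276 of all 6051 genes (21.1%) were. WT was below all 5 deletions at 7 of the 15 and 2 of the 11, against 16.5% of all genes. In arginine synthesis npl6Δ was above all 5 others at 6 of 10 genes and WT below all 5 at 7. Sulfate assimilation and methionine genes did not move together: 12 of 26 lay above 0, and MET17 was the single member 2-fold different.

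Glycine and one-carbon genes depended on the control. The glycine cleavage genes GCV1, GCV2 and GCV3 were at 98.7, 47.6 and 997 FPKM in npl6Δ and at 30.0, 6.0 and 252 FPKM in WT, all at least 2-fold higher. In WT GALpr-HTL1 they were at 44.9, 37.4 and 993 FPKM, and GCV1 alone was 2-fold higher over that library. The median of the 14 genes was 0.30 over WT and 0.04 over WT GALpr-HTL1.

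Genes of pyrimidine synthesis were looked up after the values were seen, because URA2 and URA8 were among the genes with the largest excess in npl6Δ over all 5 other libraries. URA2, the bifunctional first enzyme of the pathway, which makes its own carbamoyl phosphate, was at 440 FPKM in npl6Δ, 172 in htl1Δ, 115 in rsc1Δ, 85.7 in rsc2Δ, 87.7 in rtt102Δ, 87.0 FPKM in WT and 86.9 FPKM in WT GALpr-HTL1. The CTP synthase gene URA8 was at 231 FPKM in npl6Δ and between 64.4 and 97.8 FPKM in the other 6 libraries. URA10 was at 58.2 FPKM in npl6Δ, against 19.5 FPKM in WT (1.53), and the uracil permease gene FUR4 at 41.6 and 15.4 FPKM (1.37, but 0.79 over WT GALpr-HTL1). In htl1Δ URA10 was at 40.8 FPKM and FUR4 at 39.5 FPKM. URA4 (-0.70), URA5 (-0.06), URA6 (0.33), URA7 (0.79), URA1 (0.01) and the activator gene PPR1 (0.15) stayed under 2-fold over WT. Over WT GALpr-HTL1 the ratio of URA1 was 2.66, at 1829 FPKM in npl6Δ against 296 FPKM in that control. URA4 (0.72) and PPR1 (-0.71) changed sign there and stayed under 2-fold, as did URA5, URA6 and URA7.

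**Figure D3:**
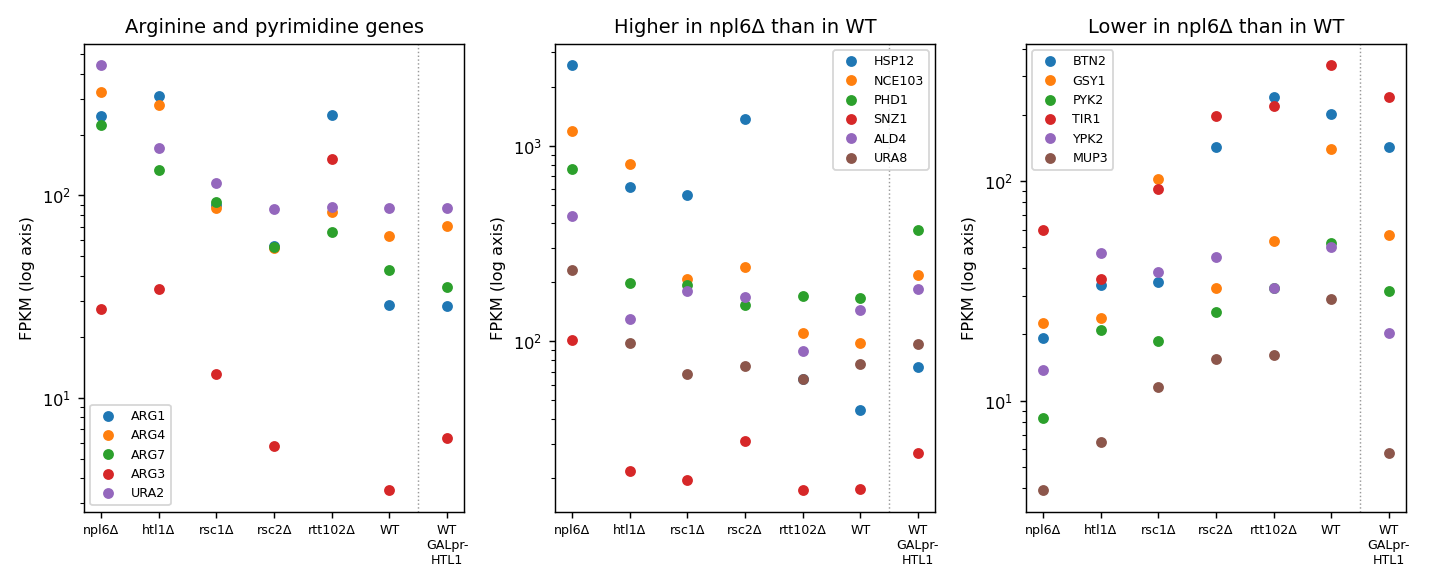
FPKM (vertical log axis) of 17 genes in 7 libraries, npl6Δ at the left and WT and WT GALpr-HTL1 at the right of each panel; WT GALpr-HTL1, right of the dotted line, comes from a separately scaled table. Each point is 1 library. URA2, SNZ1 and URA8 are highest in npl6Δ, and ARG3 is highest in rtt102Δ at 151 FPKM.

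Outside these pathways HSP12 and NCE103 had the highest ratios among loci of 300 bp or more that overlap no other row. HSP12, a small membrane-associated stress protein gene (YFL014W), was at 2575 FPKM in npl6Δ, 615 in htl1Δ, 561 in rsc1Δ, 1367 in rsc2Δ, 64.0 in rtt102Δ, 44.4 FPKM in WT and 73.7 FPKM in WT GALpr-HTL1. Thus npl6Δ stood at the top, htl1Δ, rsc1Δ and rsc2Δ in between, and rtt102Δ beside the 2 WT libraries. NCE103, carbonic anhydrase, was at 1183 FPKM in npl6Δ, 806 in htl1Δ, 110 to 240 FPKM in the other deletions, 97.9 FPKM in WT and 218 FPKM in WT GALpr-HTL1. RCK1, a kinase gene of the oxidative stress response, was at 47.8 FPKM in npl6Δ, against 6.29 FPKM in WT, with 10.5 FPKM in WT GALpr-HTL1. It was at 23.6 FPKM in htl1Δ, 32.4 in rsc1Δ, 21.3 in rsc2Δ and 4.39 in rtt102Δ. YOR338W, of unknown function, was at 124 FPKM in npl6Δ, against 13.1 FPKM in WT, but at 70.1 FPKM in WT GALpr-HTL1. YOR338W was higher in htl1Δ, at 140 FPKM, and was at 20.3 to 59.5 FPKM in the other deletions.

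A few genes were set apart in npl6Δ from all other libraries. PHD1, a transcription factor gene of filamentous growth, was at 761 FPKM in npl6Δ, 153 to 199 FPKM in the other deletions, 167 FPKM in WT and 371 FPKM in WT GALpr-HTL1, and MMO1, a neighbouring locus, was at 453 FPKM in npl6Δ, 80.8 to 117 FPKM in the other deletions, 102 FPKM in WT and 214 FPKM in WT GALpr-HTL1. SNZ1, a vitamin B6 synthesis gene, was at 101 FPKM in npl6Δ and between 17.3 and 30.8 FPKM in the other 6 libraries, and its divergent partner SNO1 was at 31.9 FPKM in npl6Δ and between 10.5 and 17.2 FPKM elsewhere. ALD4, the mitochondrial aldehyde dehydrogenase gene, was at 438 FPKM in npl6Δ and 88.7 to 186 FPKM in the others. Counted over all genes, 19 genes were at least 2-fold above and 15 at least 2-fold below every other library of the experiment. Among the 280 higher genes 180 (64.3%) had npl6Δ above all 5 other libraries, and 158 (56.4%) had WT below all 5. Among the 195 lower genes 124 (63.6%) had npl6Δ below all 5, and 122 (62.6%) had WT above all 5. Over all genes npl6Δ was below the other 5 at 1149 (19.0%), and WT was below at 16.5% and above at 16.1%. Choosing genes by the difference between npl6Δ and WT raises all 4 shares. For many genes in the counts, then, the WT library and not npl6Δ alone stood at the edge.

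Among the lower genes BTN2, a sorting factor for misfolded proteins, had the lowest ratio of a gene listed above 0 other than NPL6, at loci of 300 bp or more. It was at 19.2 FPKM in npl6Δ, 33.4 in htl1Δ, 34.7 in rsc1Δ, 143 in rsc2Δ, 242 in rtt102Δ, 202 FPKM in WT and 143 FPKM in WT GALpr-HTL1, with log2 ratios of -3.33 and -2.80 over the controls. TIR1, a cold-shock wall mannoprotein gene, was at 59.5 FPKM in npl6Δ, 336 FPKM in WT and 240 FPKM in WT GALpr-HTL1, and PYK2, the minor pyruvate kinase gene, at 8.30, 52.3 and 31.5 FPKM in the same order. Both kept 2-fold lower values over either control. TIR1 was lower still in htl1Δ, at 35.8 FPKM, and was at 91.7 to 220 FPKM in the other deletions. PYK2 was at 18.6 to 32.7 FPKM in the deletions other than npl6Δ. The methionine permease gene MUP3 was at 3.90 FPKM in npl6Δ, against 29.1 FPKM in WT, but at 5.77 FPKM in WT GALpr-HTL1, and YKR075C was at 37.3 FPKM in npl6Δ, against 207 FPKM in WT but at 38.2 FPKM in WT GALpr-HTL1. BOL1 was at 52.3 FPKM in npl6Δ and 135 to 194 FPKM in the other 6 libraries, with a row that overlaps another. YPK2, a kinase gene of the sphingolipid pathway, was at 13.8 FPKM in npl6Δ and 32.6 to 50.2 FPKM in the rest of the experiment, with 20.4 FPKM in WT GALpr-HTL1.

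The upstream windows of HSP12 and BTN2, each described above with a large ratio, are shown over the same 250 bases, with the stress response element core AGGGG, on either strand, in capitals in HSP12 and the inverted heat shock pair GAANNTTC in BTN2. HSP12 is at chrVI:106856-107105, plus strand and BTN2 at chrVII:772054-772303, plus strand.
HSP12: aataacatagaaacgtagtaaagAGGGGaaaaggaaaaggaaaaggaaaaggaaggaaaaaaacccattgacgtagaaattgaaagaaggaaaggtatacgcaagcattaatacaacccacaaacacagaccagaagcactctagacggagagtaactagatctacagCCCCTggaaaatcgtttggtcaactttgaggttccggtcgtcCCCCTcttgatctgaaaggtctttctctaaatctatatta
BTN2: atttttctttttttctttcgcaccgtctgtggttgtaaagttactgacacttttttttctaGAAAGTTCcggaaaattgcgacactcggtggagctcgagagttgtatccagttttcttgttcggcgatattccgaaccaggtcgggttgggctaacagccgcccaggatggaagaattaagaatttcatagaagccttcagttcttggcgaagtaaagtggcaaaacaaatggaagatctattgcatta

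HSP12 held 5 stress elements within 500 bases of the start codon, 3 of them in the bases shown, and BTN2 held none of them and 1 heat shock pair. Searched on both strands of 500 bases, AGGGG was present upstream of 37.9% of 227 higher protein-coding genes, 49.6% of 139 lower ones and 34.4% of all 5502. TGACTC was present upstream of 21.1% of the higher, 8.63% of the lower and 13.1% of all. The Rsc3 core CGCGC was found upstream of 20.3%, 23.0% and 19.2%, and the heat shock pair upstream of 17.6%, 20.1% and 19.4%, in the same order. Against both controls TGACTC was present at 28.4% of 109 higher genes and 5.97% of 67 lower genes. The share with AGGGG depended on the control: it was upstream of 49.5% of the genes higher and 37.3% of those lower than both WT libraries.

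Of 29 chaperone and aggregate-handling genes 25 lay below 0 and 7 were at least 2-fold lower, with a median of -0.42, where 3.22% of all genes were 2-fold lower. npl6Δ was below all 5 other libraries at 16 of them, against 19.0% of all genes. WT was above all 5 deletions at 9 of them, against 16.1% of all genes. HSP104, the disaggregase, was at 120 FPKM in npl6Δ, 216 to 320 FPKM in the other deletions, 406 FPKM in WT and 232 FPKM in WT GALpr-HTL1. HSP42, a small heat shock protein that gathers aggregates, was at 113 FPKM in npl6Δ, 183 to 386 FPKM in the other deletions, 357 FPKM in WT and 293 FPKM in WT GALpr-HTL1. The Hsp70 cofactor gene APJ1 was at 20.5 FPKM in npl6Δ, against 57.1 FPKM in WT (-1.43), and CUR1, a paralog of BTN2, at 37.2 and 82.1 FPKM (-1.12). HSP82, at -1.23, and SSA2, at -1.16, have near-identical paralogs that make their values uncertain. HSP26, another small heat shock gene, was the 1 member 2-fold higher, at 166 FPKM in npl6Δ, against 47.6 FPKM in WT (1.78), but its ratio was 0.52 over WT GALpr-HTL1. Over WT GALpr-HTL1 the list median was -0.14, and BTN2, HSP42, CUR1 and APJ1 were still at -2.80, -1.33, -1.17 and -1.05.

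In the other stress groups, HSP12, HSP30 and YRO2 led the membrane proteins. HSP30 was at 753 FPKM in npl6Δ, 658 to 895 in htl1Δ, rsc1Δ and rsc2Δ, 261 in rtt102Δ, 210 FPKM in WT and 243 FPKM in WT GALpr-HTL1. YRO2 was at 373 FPKM in npl6Δ, against 105 FPKM in WT (1.82), while its homolog MRH1 was at 1772 and 1685 FPKM (0.07). Of 20 general stress genes 5 were at least 2-fold higher and 1 lower (median 0.44): SIP18 (1.51), YGP1 (1.41), DDR2 (1.40), ALD3 (1.21) and HSP31 (1.02) against TMA10 (-1.28). Over all genes 4.63% were 2-fold higher and 3.22% lower. Over WT GALpr-HTL1 ALD3 was at 0.86 and TMA10 at 0.05. YGP1, a secreted glycoprotein gene, was at 361 FPKM in npl6Δ, 407 to 489 in htl1Δ, rsc1Δ and rsc2Δ, 145 in rtt102Δ and 136 FPKM in WT, so npl6Δ was with 3 other deletions and not above them. Glycogen and trehalose genes had a median of -0.53 over WT, with GSY1 (-2.59), GLC3 (-1.57), TPS2 (-1.31), GLG1 (-1.20) and PGM2 (-1.06) at least 2-fold lower. Over WT GALpr-HTL1 that median was 0.16 and of these GSY1 alone was 2-fold lower (-1.26). GSY1 was at 22.5 FPKM in npl6Δ, 23.7 in htl1Δ, 32.7 to 102 FPKM in the other deletions and 140 FPKM in WT.

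Most ribosomal protein genes lay below 0 by less than 2-fold. Of 137 ribosomal protein genes 134 lay below 0 in npl6Δ, in a narrow range: the median was -0.59 with quartiles at -0.68 and -0.44, and 3 were at least 2-fold lower and 1 higher. At 121 of them (88.3%) npl6Δ was below all 5 other libraries, against 19.0% of all genes. The median over WT GALpr-HTL1 was -0.53, with 134 below 0. Genes of the large subunit had a median of -0.56 (81 genes) and of the small subunit -0.65 (56 genes). Most are near-identical pairs whose reads the authors' counting could split; the 20 with no A or B copy in the name were all below 0, with a median of -0.65. RPL25, of the large subunit, was at 6363 FPKM in npl6Δ, 7994 in htl1Δ, 9724 to 11058 FPKM in the others, 10367 FPKM in WT and 9873 FPKM in WT GALpr-HTL1. The paralogs RPS9A, at 1024 FPKM in npl6Δ, against 332 FPKM in WT, and RPS9B, at 2714 and 5526 FPKM, differed in opposite directions and are uncertain for the same reason.

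Other abundant transcripts did not share the shift. Among genes with a mean of over 1000 FPKM in the pair, the 124 ribosomal protein genes had a median of -0.59 and the 173 other genes one of 0.05. Over loci of 300 bp or more, ribosomal protein genes made up 32.2% of the summed FPKM in npl6Δ, 37.3% in htl1Δ, 41.9% in rsc1Δ, 39.9% in rsc2Δ, 44.4% in rtt102Δ, 42.9% in WT and 42.0% in WT GALpr-HTL1. FPKM is relative to the library, so a smaller share cannot be told apart from more RNA of other genes. The medians of the 137 genes over the shared WT were -0.38 in htl1Δ, -0.06 in rsc1Δ, -0.03 in rsc2Δ and 0.08 in rtt102Δ.

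**Figure D4:**
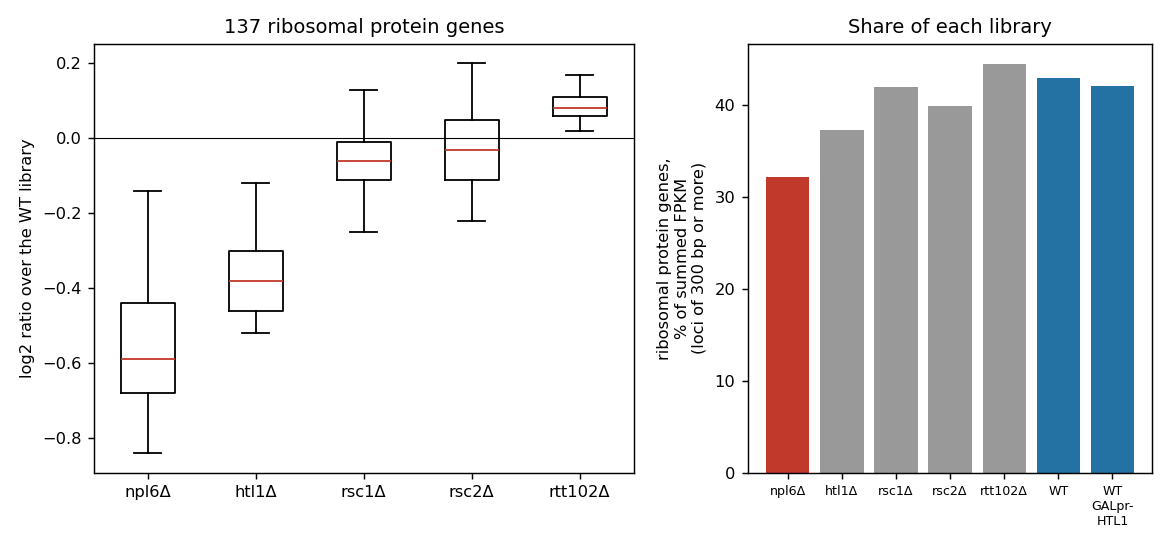
Left, log2 ratios of 137 ribosomal protein genes over the WT library in the 5 deletions (box, quartiles; red line, median; whiskers, 5th to 95th percentile over genes). Right, bars of their share of the summed FPKM at loci of 300 bp or more in 7 single libraries, in percent; npl6Δ is lowest at 32.2%.

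Ribosome biogenesis genes, which encode factors that process and assemble the pre-ribosome, were on the other side: 50 of 54 lay above 0, with a median of 0.58. RRP9 (1.17, at a row that overlaps another), UTP15 (1.09), RPF1 (1.05) and SPB1 (1.00) were at least 2-fold higher, where 4.63% of all genes were. RPF1 was at 372 FPKM in npl6Δ, 203 to 309 FPKM in the other deletions, 178 FPKM in WT and 244 FPKM in WT GALpr-HTL1. At 36 of the 54 genes npl6Δ was above all 5 other libraries, against 21.1% of all genes, and at 34 WT was below all 5, against 16.5% of all genes. Over WT GALpr-HTL1 the median was 0.27 and no gene was 2-fold higher. RNA polymerase I genes had a median of 0.50 over WT and 0.18 over WT GALpr-HTL1.

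No histone gene was 2-fold different. All 11 lay above 0, between 0.07 and 0.65, with a median of 0.47 over WT and 0.54 over WT GALpr-HTL1. At 5 of them npl6Δ was above all 5 other libraries, against 21.1% of all genes. HHT2, a histone H3 gene, was at 6664 FPKM in npl6Δ, 2712 in htl1Δ, 4495 to 6238 FPKM in the other deletions, 4245 FPKM in WT and 4039 FPKM in WT GALpr-HTL1; its coding sequence is close to that of HHT1. CSE4, the centromeric H3 gene, was at 94.1 FPKM in npl6Δ, against 61.8 FPKM in WT (0.60). Over the same WT the list medians were -0.58 in htl1Δ, 0.16 in rsc1Δ, 0.48 in rsc2Δ and 0.09 in rtt102Δ, so the npl6Δ median was close to that of rsc2Δ.

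**Figure D5:**
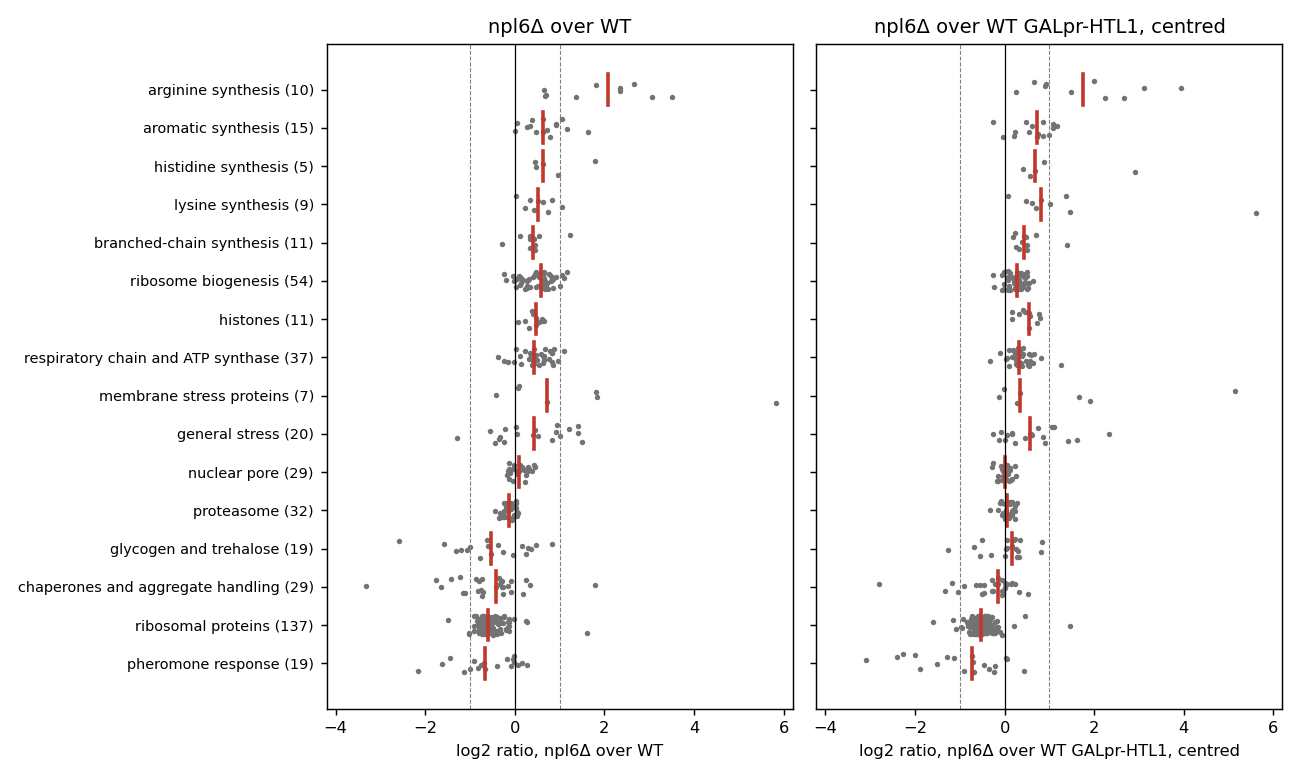
Log2 ratios of the members of 16 gene groups (grey points, 1 gene each; number measured in parentheses; red bar, median) for npl6Δ over WT at the left and npl6Δ over WT GALpr-HTL1, centred on the median of all genes, at the right; vertical spread within a row is for display. Arginine synthesis is farthest to the right in both panels, the medians of ribosomal protein and pheromone genes lie left of 0 in both, and the glycogen and trehalose median is at -0.53 in the left panel and 0.16 in the right.

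Genes of mating had ratios on both sides of 0. Of 19 pheromone-response genes 16 lay below 0 and 5 were at least 2-fold lower, where 3.22% of all genes were, with a median of -0.67 over WT and -0.72 over WT GALpr-HTL1. Among the list's genes at 20 FPKM or more the median was -0.05. Medians over the same WT were -0.50 in htl1Δ, -0.42 in rsc1Δ, -0.62 in rsc2Δ and -0.05 in rtt102Δ. WT was above all 5 deletions at 11 of the 19 genes, against 16.1% of all genes. At 6 of the 19 npl6Δ was below all 5 other libraries, against 19.0% of all genes. The deletions other than npl6Δ are a-type, while WT has the marker pattern of alpha cells. In their medians, and in counts that include them, mating type and deletion cannot be told apart. AGA1, the anchor of the agglutinin, was at 29.8 FPKM in npl6Δ, 25.4 in htl1Δ, 39.6 in rsc1Δ, 21.0 in rsc2Δ, 110 in rtt102Δ, 137 FPKM in WT and 269 FPKM in WT GALpr-HTL1. FUS1, a cell fusion gene, was at 10.0 FPKM in npl6Δ, 29.1 FPKM in WT and 44.2 FPKM in WT GALpr-HTL1. STE12, the pheromone-response transcription factor gene, was at 67.4 FPKM in npl6Δ, against 60.1 FPKM in WT (0.16), and the G protein gene GPA1 at 114 and 109 FPKM. Among the alpha-specific genes, MF(ALPHA)2, a minor alpha-factor gene, was at 943 FPKM in npl6Δ, 4121 FPKM in WT and 3306 FPKM in WT GALpr-HTL1, and SAG1, alpha-agglutinin, at 275, 1154 and 1295 FPKM in the same order. MF(ALPHA)1, the major alpha-factor gene, was on the other side, at 9754 FPKM in npl6Δ, 5164 FPKM in WT and 5628 FPKM in WT GALpr-HTL1. In the a-specific list 2 of 6 genes were 2-fold higher, where 4.63% of all genes were, and none lower (median 0.33). The a-factor gene MFA1, a short locus, was at 134 FPKM in npl6Δ, 37.1 FPKM in WT and 8234 to 45028 FPKM in the a-type deletions.

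Of 37 respiratory chain and ATP synthase genes 33 lay above 0 (median 0.43, and 0.31 over WT GALpr-HTL1), and CYC1, cytochrome c, was the 1 gene 2-fold higher, at 463 FPKM in npl6Δ, 217 FPKM in WT and 197 FPKM in WT GALpr-HTL1. The glycolytic gene TDH1 was at 1464 FPKM in npl6Δ, 438 FPKM in WT and 864 FPKM in WT GALpr-HTL1. Of 16 hexose transport and sensing genes 3 were at least 2-fold lower over WT, where 3.22% of all genes were, and none over WT GALpr-HTL1. Their median was -0.30 over WT and 0.03 over WT GALpr-HTL1, with MIG2, a glucose repressor gene, at 31.8 FPKM in npl6Δ, 116 FPKM in WT and 37.2 FPKM in WT GALpr-HTL1. Lists of nitrogen, iron, phosphate, wall and sporulation genes held members on both sides of 0; over all genes 4.63% were 2-fold higher and 3.22% lower. Of 18 nitrogen catabolite genes 5 were at least 2-fold higher over WT and 2 over WT GALpr-HTL1, with the ammonium permease gene MEP2 at 29.0 FPKM in npl6Δ, against 9.07 FPKM in WT (1.58). Of 35 wall genes 5 were higher and 1 lower, with the glucan synthase gene GSC2 at 53.6 and 17.3 FPKM (1.58, but 0.86 over WT GALpr-HTL1) and CRH1, a chitin crosslinker, at 600 and 266 FPKM (1.17). Of 28 iron genes 3 were higher and 1 lower: FIT2 was at 198 FPKM in npl6Δ, 457 in rsc2Δ and 89.9 FPKM in WT. The iron median was 0.01 over WT and 0.42 over WT GALpr-HTL1, where 4 genes were 2-fold higher and none lower. In the phosphate regulon the transporter gene PHO84 was at 2255 and 843 FPKM (1.42, but 0.58 over WT GALpr-HTL1) and PHM6 at 43.6 and 201 FPKM (-2.18). Of 26 sporulation genes 6 were higher and 1 lower, and all 6 were low, such as the septin gene SPR28 at 10.7 FPKM in npl6Δ, against 1.08 FPKM in WT.

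Medians over WT were close to 0 for RSC, SWI/SNF, nuclear pore, spindle pole body, nuclear envelope and proteasome genes. The 16 other RSC subunit genes had ratios between -0.34 (RSC9) and 0.46 (ARP7) and none was 2-fold different. HTL1, the partner subunit, was at 370 FPKM in npl6Δ, against 290 FPKM in WT (0.35), and LDB7, RSC3 and RSC30 had ratios of -0.09, -0.17 and -0.13. In WT GALpr-HTL1, which carries the HTL1 construct, HTL1 was at 555 FPKM, so its ratio over that control was -0.55. SWI/SNF genes had a median of 0.03, nuclear pore genes 0.09 (29 genes), spindle pole body genes 0.06 (18 genes), nuclear envelope genes -0.00 (22 genes) and proteasome genes -0.13 (32 genes, 24 below 0). None of these 5 lists had a 2-fold member over WT. Over WT GALpr-HTL1, 1 nuclear envelope gene was 2-fold lower.

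The counts varied with position, level and locus kind. The part of these in the gene group results was not tested. Of 362 genes with a mean under 10 FPKM in the pair, 14.1% were higher and 8.01% lower. Of the 2408 genes at 10 to 50 FPKM, 3.28% were higher and 3.32% lower. Median ratios by chromosome ran from -0.10 (chromosome I) to 0.15 (chromosome III). Of 78 genes within 15 kb of a chromosome end 14.1% were lower and 6.41% higher, against 3.08% and 4.60% of the 5973 others. The neighbours of NPL6 were at -0.05 (YTA12), 0.93 (YMR090W), 0.20 (AIP1), -0.18 (VBA1), 0.31 (CTF13) and 1.09 (UTP15). Of the higher genes 227 of 280 and of the lower genes 139 of 195 are protein-coding genes in RefSeq, against 5502 of 6051 overall. Rows that overlap another row made up 52 of the higher genes, 54 of the lower genes and 924 of all 6051. Of the 924, 5.63% were higher and 5.84% lower, against 4.45% and 2.75% of the 5127 rows with no overlap. The overlapping rows include loci such as YLR364C-A, at 21.8 FPKM in npl6Δ and listed at 0 in WT. Another is YER090C-A, listed at 0 in npl6Δ and at 344 FPKM in WT. The sources do not state whether strand was kept, so reads of such overlapping or antisense loci cannot be told apart. Loci under 300 bp, where FPKM divides by little effective length, were 2-fold higher at 16.6% and 2-fold lower at 9.24%.

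The authors' deposited table called 27 of the genes significant, 16 higher and 11 lower in npl6Δ, at q-values from 0.0150. All 27 were at least 2-fold different by the ratio used here. The authors' deposited table gave NPL6 a q-value of 0.996, although its transcript was nearly absent. That test compares 1 library with 1 library.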

How the data were processed

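Oligo-dT beads were used to select polyadenylated RNA before HiSeq sequencing, per the labels' protocols. TopHat, Cufflinks and Cuffdiff and the build sacCer3 are named in the submitters' processing notes, with no versions. The authors deposited FPKM per gene for 2 libraries per table, with a log2 fold change, a p-value and a q-value, per the file headers. The deposited log2 values and p-values were not used for results, and q-values are cited as the authors' own.

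Of 6931 rows, 115 name several genes and were left out. Of the 6816 others, 602 had a status other than OK and 163 with status OK were under 5 FPKM in both libraries. Gene symbols came from RefSeq (assembly R64, the same build), which matched 5859 identifiers, 5381 with the same coordinates. Ratios used a pseudocount of 1 FPKM, which understates differences of low genes. Other deletions were put on the scale of the npl6Δ table through the shared WT library. WT GALpr-HTL1 was scaled separately by the authors, and ratios over it were centred on their median, a shift of -0.03. It has another history of growth and other marker genes and is no replicate of WT. Its HTL1 level was 555 FPKM, against 290 FPKM in WT.

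The members and 44 gene lists were chosen with earlier results of these data known. Of 937 list members 899 were measured, and 11 have no row of their own. Genes named are NPL6, its neighbours and the RSC subunits, the 15 highest and 15 lowest at loci of 300 bp or more outside near-identical families, list members at least 2-fold different (any member of short lists), those just inside and outside 5 FPKM and the largest excesses and deficits against the 5 other libraries; others were chosen after their values were seen, and some genes that the rule covers are not reported here. Depth is an estimate: 84.3% to 90.0% of 36 to 55 low values per library were whole to within 0.1 after 190 to 214 bp were taken off locus lengths. The size rule was run on simulated libraries with known changes and a set noise. That run does not measure the spread between real libraries and is no check of the counts. Alternatives were pseudocounts of 0.1 and 10 FPKM, filters, centring, locus length, rows of other kinds, the authors' calls and, chosen after seeing the data, the second control and loci that overlap no other row. Python 3.11.15, pandas 2.3.3, NumPy 2.4.6 and matplotlib 3.10.9 were used.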

Additional observations from a re-analysis of the deposited data

How the results depend on the processing

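With 1 library per strain the counts rest on the size rule and on the choice of control. A pseudocount of 10 FPKM gave 169 higher and 103 lower genes, 173 genes with npl6Δ outside the range of the other 5 libraries (304 with 1 FPKM) and 164 with WT outside it (280 with 1 FPKM). Joined with the authors' calls the 2-fold rule gave 16 and 11 genes, both WT libraries together gave 131 and 88, and loci of 300 bp or more that overlap no other row gave 179 and 113. Counts stayed within 1.5 times the main ones with a pseudocount of 0.1 FPKM, no filter, a filter of 20 FPKM, centred ratios, rows of any status or of several genes, loci of 300 bp or more, levels as deposited, and WT GALpr-HTL1 as the only control (226 higher and 130 lower).

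With WT GALpr-HTL1 as the control 27 of the 44 list medians and 45 of the 131 named ratios moved, and 16 medians and 79 ratios moved little. Some of the 27 medians changed sign, such as hexose transport and sensing (-0.30 to 0.03) and purine synthesis (0.11 to -0.19). Proteasome (-0.13 to 0.05), sulfate and methionine (-0.10 to 0.04) and arginine breakdown (-0.09 to 0.05) did so too. A pseudocount of 10 FPKM moved 38 ratios and 6 medians. Over WT GALpr-HTL1 the glycogen and trehalose median changed sign to 0.16, and so did MTH1 (0.11), GLG1 (0.06), FRE1 (0.76), TMA10 (0.05), PGM2 (0.00), ADE17 (-1.12) and MDH2 (0.75); the cause was not tested. The a-specific median was -0.32 at loci of 300 bp or more, where short a-factor genes drop out. The pheromone-response median was -0.05 at 20 FPKM or more. No paired analysis was possible because each strain had 1 library.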
